A study of Mus musculus with 27 samples.

Results

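The genes described here are 9 transcripts known as markers of scar-associated, lipid-handling macrophages: Gpnmb, Trem2, Lgals3, Spp1, Cd9, Cd63, Fabp5, Ctsd and Atp6v0d2. They were selected by symbol, each matched to its Ensembl identifier, and make up 9 of the 55414 genes in the deposited count table. All 9 passed the low-count filter (10 counts or more on average over the libraries), as did 14114 genes in all. The list was chosen with results of these livers already known, so the contrasts between fibrotic and uninjured livers are a description, and the calls given for them are no evidence about the list.

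Whole-liver RNA was sequenced from 27 female Balb/c mice in 8 groups, all 8 weeks old at the start. Fibrosis was induced by intraperitoneal injection of carbon tetrachloride (CCl4), a hepatotoxin activated in hepatocytes, over 2 weeks, while uninjured mice received intraperitoneal olive oil. The 13 uninjured livers comprised control (olive oil and tail vein PBS, n = 4), 4MU (olive oil and daily gavage of 4-methylumbelliferone, an inhibitor of hyaluronan synthesis, n = 3), siLuc-LNP (n = 3) and siHAS2-LNP (n = 3). The 14 fibrotic livers comprised CCl4 alone (n = 2), CCl4 + 4MU (n = 4), CCl4 + siLuc-LNP (n = 4) and CCl4 + siHAS2-LNP (n = 4). The siHAS2-LNP mice received lipid nanoparticles carrying siRNA against hyaluronan synthase 2 by tail vein, and the siLuc-LNP mice received the same particles with a luciferase siRNA that has no mouse target. Per the study's methods, 4MU and the nanoparticles were begun 2 days before the first CCl4 injection, so treatment preceded the injury. The methods also give control mice a gavage of carboxymethyl cellulose, the 4MU vehicle. The labels of the CCl4 group name no tail vein injection or gavage beside CCl4, so the effect of CCl4 and that of the control's PBS injection cannot be told apart, nor can a treatment and its route in comparisons with CCl4 alone. Because the CCl4 group held 2 mice and is the reference of 3 comparisons below, those comparisons share their reference samples.

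Library totals ran from 7044386 counts (CCl4 + siHAS2-LNP replicate 4) to 29425937 counts. The targeted gene Has2 had 0 counts in 25 of 27 libraries and at most 2 counts in any, so its knockdown was not detectable at this depth. Of the tissue markers, the hepatocyte list summed to between 70500 and 200942 CPM (counts relative to the library total, scaled by TMM) in every liver. One library, CCl4 + 4MU replicate 4, stood apart in some markers of the cholangiocyte list but not in others. Krt19 was at 92.5 CPM and Epcam at 19.6 CPM there, against at most 6.13 and 2.39 CPM in any other liver. Krt7, at 4.44 CPM, lay below the 5.95 CPM of CCl4 replicate 2, and Sox9, at 4.94 CPM, lay within the range of its group (2.75 to 6.03 CPM). The cell source of these counts was not tested. Comparisons of CCl4 + 4MU with other fibrotic livers are also given without this library.

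Macrophages that clear dying, lipid-laden cells in a damaged liver take up a shared expression programme, in which the receptor Trem2 senses lipids and passes a signal through the adaptor Tyrobp and the kinase Syk. Lysosomal genes such as Gpnmb and Ctsd accompany the digestion of what was engulfed, and secreted osteopontin (Spp1) and galectin-3 (Lgals3) act on the surrounding scar. Several of the 9 are not restricted to macrophages: osteopontin is also made by bile duct cells, the tetraspanins Cd9 and Cd63 are found on many cells, and Ctsd is present in most. In whole-liver RNA, more cells of a type and more RNA per cell cannot be told apart.

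Promoter letters of 3 members are shown: Gpnmb and Trem2, with the largest CCl4 fold changes, and the lysosomal protease Ctsd, which carries a motif of lysosomal genes. RefSeq promoter windows (250 bases before to 50 bases after the RefSeq start, table build GRCm38.p6) were found for 7 of the 9 members, and none for Fabp5 and Atp6v0d2. Coordinates are GRCm39, from an exact match to that genome, and capitals mark the motif match.
Gpnmb, chr6:49013254-49013304, plus strand: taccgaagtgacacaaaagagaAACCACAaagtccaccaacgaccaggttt
Trem2, chr17:48653398-48653448, plus strand: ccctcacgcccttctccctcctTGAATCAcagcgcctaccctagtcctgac
Ctsd, chr7:141941782-141941814, minus strand: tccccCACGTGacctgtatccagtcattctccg

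AACCACA, the letters bound by Runx factors, lay 176 bases before the Gpnmb start, and 5.27% of all 32851 promoter windows hold it on either strand. TGANTCA, a looser form of the AP-1 consensus (TGACTCA or TGAGTCA), lay 9 bases before the Trem2 start and is held by 7.81% of windows. The Trem2 letters, TGAATCA, are not that consensus, since they differ from it at the central base. Ctsd held CACGTG, the E-box core bound by the TFE family that drives lysosomal genes, 245 bases before its RefSeq start, and 7.15% of windows hold it. Further matches lay in stretches that GENCODE annotates as untranslated exon: TGANTCA in Gpnmb, a second CACGTG in Ctsd, and AACCACA and AGGAAGT (an ETS-type core, in 9.35% of windows) in Spp1. The RefSeq starts of Spp1 and Ctsd lie inside the GENCODE genes whose coordinates are given below, so these matches are not upstream of every annotated start. The windows of Cd9, Cd63 and Lgals3 held none of these letters. The motifs were chosen after a look at these windows, and the matches describe letters and say nothing of binding.

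Scaled by the joined length of all annotated exons of a gene, Ctsd and Spp1 had the highest levels of the members in livers given CCl4 alone. Their means were 447 and 406 TPM (counts scaled by that length and by library), with overlapping ranges. The joined exons of all transcripts measured 4946 bases for Trem2, 4784 for Cd63 and 3667 for Fabp5. This length can exceed that of the transcript in use, so the order of the members depends on it. Lgals3 (111 TPM) and Cd9 (88.6 TPM) followed and also overlapped, then Fabp5 (46.1 TPM) and Gpnmb (37.8 TPM), which overlapped too, and then Cd63 (27.3 TPM), Atp6v0d2 (18.4 TPM) and Trem2 (14 TPM). In control livers the order was different: Ctsd led at 263 TPM, Spp1, Fabp5, Cd9 and Atp6v0d2 lay between 32.0 and 52.1 TPM with overlapping ranges, and Gpnmb (0.123 TPM) and Trem2 (0.239 TPM) were close to the limit of detection.

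**Figure D1:**
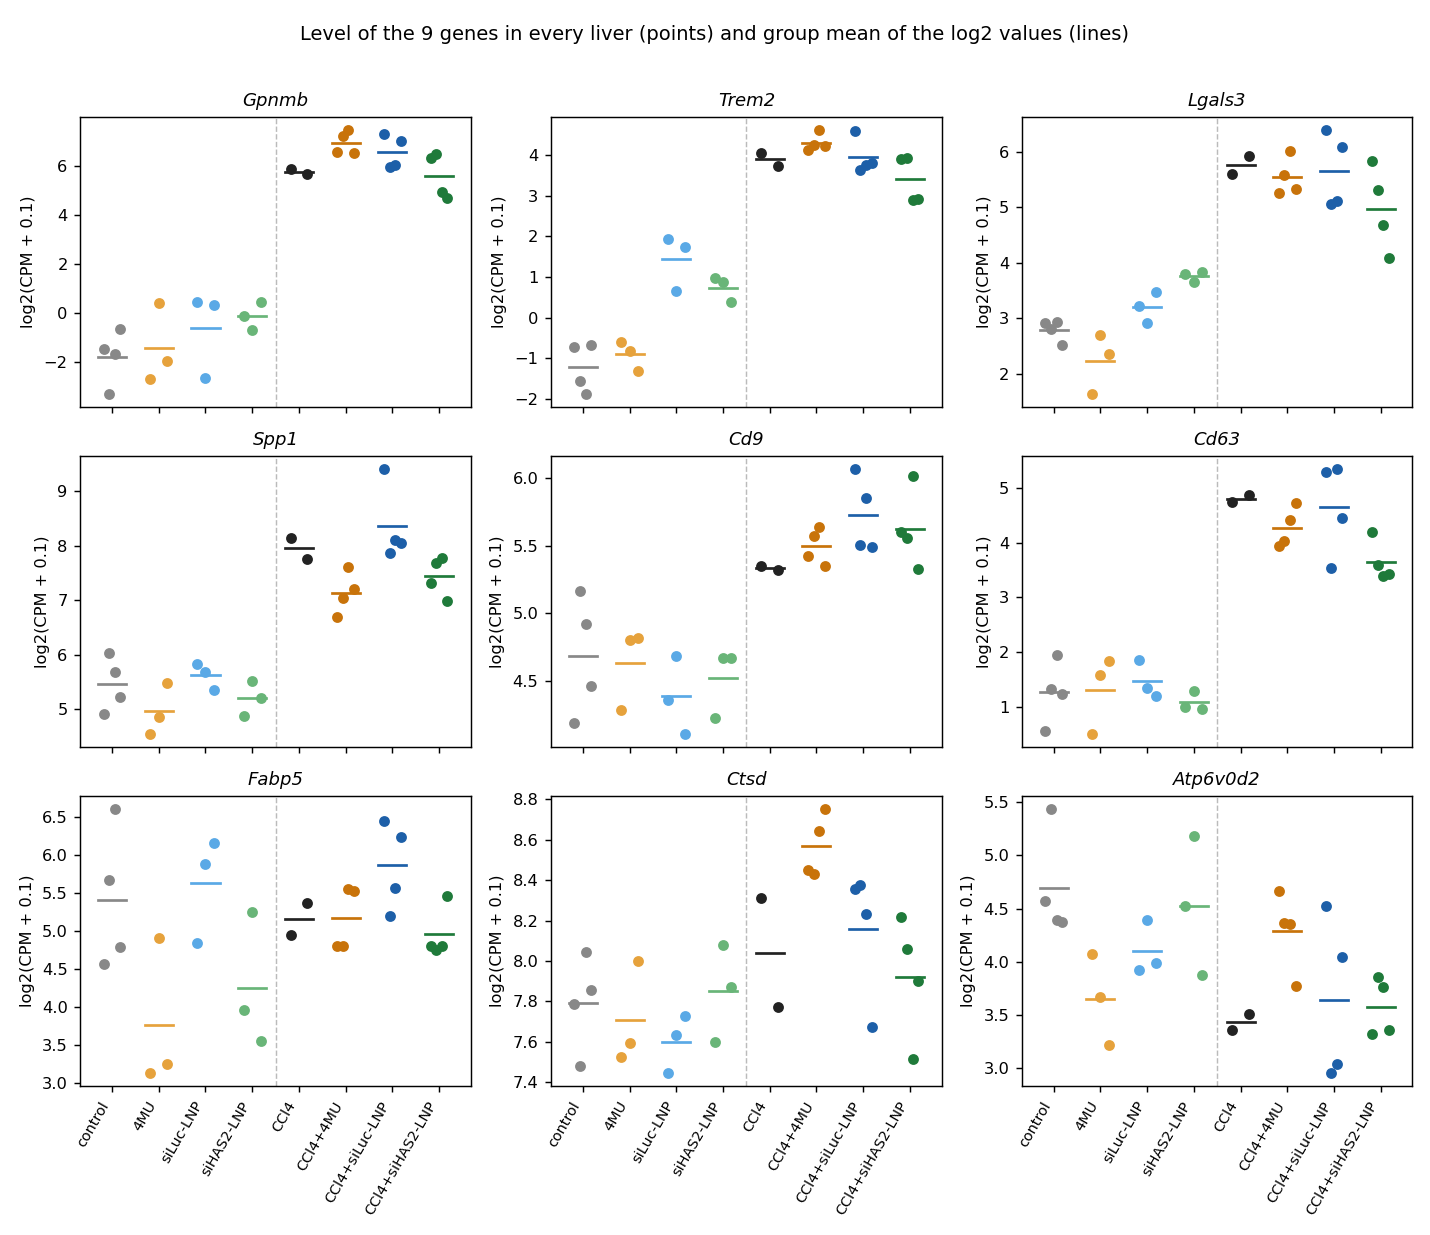
Level of each gene in every liver on a log2(CPM + 0.1) scale (points), with the group mean of those values (lines), uninjured groups left of the dashed line and fibrotic groups right of it. Gpnmb, Trem2, Lgals3, Spp1, Cd63 and, by a narrow gap, Cd9 are higher in every fibrotic liver than in every uninjured liver. Fabp5, Ctsd and Atp6v0d2 overlap between the 2 sides of the line.

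Gpnmb (chr6:49013426-49047863, plus strand), a transmembrane glycoprotein of the endolysosome, differed most between fibrotic and uninjured livers. It measured 0.254, 0, 0.213 and 0.531 CPM in control livers and 57.8 and 50.02 CPM after CCl4. In CCl4 + 4MU livers it measured 94.0, 146, 175 and 91.7 CPM, in CCl4 + siLuc-LNP livers 156, 61.6, 64.8 and 129 CPM, and in CCl4 + siHAS2-LNP livers 79.8, 89.2, 30.3 and 25.2 CPM. No uninjured liver of any group exceeded 1.26 CPM, so the 14 fibrotic and 13 uninjured livers did not overlap. The log2 fold change was 7.62 (SE 0.72) for CCl4 against control, and 7.92, 6.93 and 6.06 in the 4MU, siLuc-LNP and siHAS2-LNP arms. The size of these folds rests on 0 to 13 counts per control library.

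Trem2 (chr17:48653429-48661175, plus strand), the lipid-sensing receptor of the list, behaved differently in its baseline. It measured 0.508, 0.236, 0.171 and 0.531 CPM in control livers and 0.563, 0.468 and 0.304 CPM after 4MU alone, but 3.71, 1.48 and 3.25 CPM after siLuc-LNP and 1.86, 1.74 and 1.19 CPM after siHAS2-LNP. In fibrotic livers it measured 16.4 and 13.3 CPM (CCl4), 17.4, 18.98, 24.6 and 18.7 CPM (CCl4 + 4MU), 24.0, 12.4, 13.4 and 13.99 CPM (CCl4 + siLuc-LNP) and 14.9, 15.1, 7.30 and 7.47 CPM (CCl4 + siHAS2-LNP). Every liver given nanoparticles without CCl4 thus lay above every control and 4MU liver, and below every fibrotic liver. The log2 difference between fibrotic and uninjured livers was 5.32 (SE 0.40) without treatment and 5.46 (SE 0.41) with 4MU, against 2.49 (SE 0.33) with siLuc-LNP and 2.80 (SE 0.35) with siHAS2-LNP.

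Lgals3 (chr14:47605208-47623624, plus strand), a galactoside-binding lectin released by macrophages, measured 5.64 to 7.59 CPM in control livers and 48.3 and 60.4 CPM after CCl4, a log2 fold change of 2.98 (SE 0.36). The same difference was 3.29 in the 4MU arm, 2.56 in the siLuc-LNP arm and 1.37 (SE 0.34) in the siHAS2-LNP arm. In that last arm the uninjured livers were the highest of the uninjured groups (12.5 to 14.2 CPM) and the fibrotic livers spread from 16.9 to 56.5 CPM, still without overlap.

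Spp1 (chr5:104582165-104589235, plus strand), the secreted ligand of integrins and of the hyaluronan receptor Cd44, measured 30.1, 65.4, 51.4 and 37.1 CPM in control livers and 281 and 217 CPM after CCl4. It measured 103, 132, 195 and 147 CPM with CCl4 + 4MU, 677, 233, 277 and 266 CPM with CCl4 + siLuc-LNP, and 160, 205, 218 and 126 CPM with CCl4 + siHAS2-LNP. Fibrotic and uninjured livers did not overlap, although 1 CCl4 + siLuc-LNP liver, at 677 CPM, lay far above the rest. The log2 fold changes were 2.44 (SE 0.35), 2.16, 2.87 and 2.25 in the untreated, 4MU, siLuc-LNP and siHAS2-LNP arms. The library high in Krt19 and Epcam, CCl4 + 4MU replicate 4, held 147 CPM of Spp1, within the range of its group. Without that library the 4MU arm's value was 2.15. The part of bile duct cells in the Spp1 level was not tested.

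Of the tetraspanins, Cd63 (chr10:128731528-128748709, plus strand), which cycles through late endosomes, measured 1.37 to 3.75 CPM in control livers and 26.4 and 29.2 CPM after CCl4, a log2 fold change of 3.5 (SE 0.39), and of 2.66 to 3.37 in the other arms. Cd9 (chr6:125437210-125471778, minus strand), a surface tetraspanin found on many liver cells, changed much less: 18.2 to 35.7 CPM in control livers, 40.8 and 39.9 CPM after CCl4, and log2 fold changes of 0.61 (SE 0.23), 0.85, 1.35 and 1.12 in the 4 arms. Its fibrotic and uninjured livers did not overlap within any arm or across arms, with the narrowest gap in the CCl4 against control pair (39.9 against 35.7 CPM).

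The 3 remaining members showed no common direction. Ctsd (chr7:141929646-141941775, minus strand), the aspartyl protease cathepsin D, measured 178 to 264 CPM in control livers and 318 and 218 CPM after CCl4, with log2 fold changes of 0.26 (SE 0.22), 0.85 (SE 0.20), 0.58 and 0.08 in the untreated, 4MU, siLuc-LNP and siHAS2-LNP arms. Fabp5 (chr3:10077602-10081674, plus strand), a fatty acid chaperone, spread from 23.5 to 97.2 CPM among control livers alone, and its log2 fold changes ran from -0.47 (SE 0.55) without treatment to 1.21 (SE 0.49) with 4MU. Atp6v0d2 (chr4:19876838-19922614, minus strand), a subunit of the proton pump that acidifies lysosomes, measured 23.6, 43.2, 20.9 and 20.7 CPM in control livers and 10.1 and 11.3 CPM after CCl4, a log2 fold change of -1.34 (SE 0.41). It was lower in the siHAS2-LNP arm as well (-1.03, SE 0.34), with values of 0.63 and -0.32 in the 4MU and siLuc-LNP arms.

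**Figure D2:**
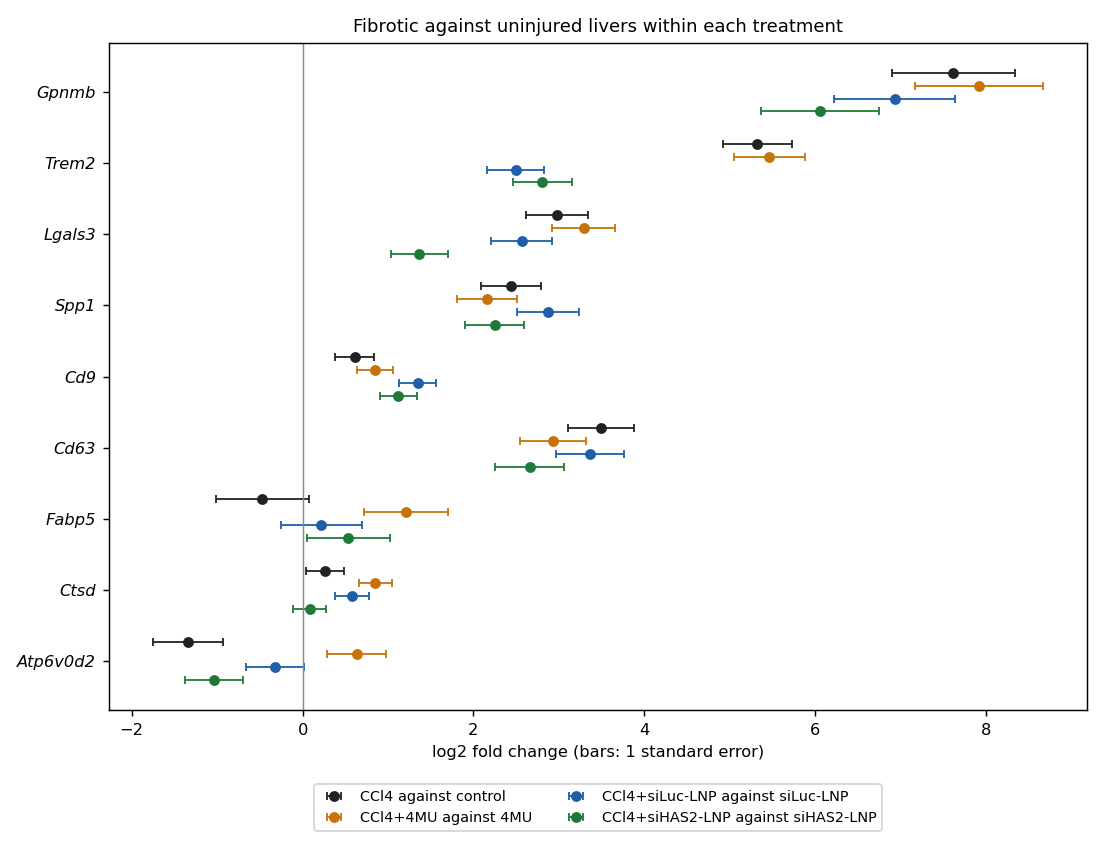
Log2 fold change of fibrotic against uninjured livers within each treatment (points, bars of 1 standard error, colours for the 4 arms). Gpnmb lies between 6.06 and 7.92 in all arms, Trem2 splits into values above 5 without nanoparticles and below 3 with them, and Atp6v0d2 lies on both sides of 0.

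With edgeR's quasi-likelihood test across all genes (Benjamini-Hochberg adjusted p under 0.05), 6 members were called higher and 1 lower after CCl4 alone, where 34.1% of all genes tested were called. The calls were 7 higher and 0 lower in the 4MU arm (23.7% of genes called), 7 higher and 0 lower in the siLuc-LNP arm (24.2%), and 6 higher and 1 lower in the siHAS2-LNP arm (12.8%). Nothing is read from these counts, since the list was made of genes known to mark fibrotic liver. The median log2 fold change of the 9 was 2.44, 2.16, 2.49 and 1.37 in the 4 arms, beside medians over all genes of -0.02, 0.00, -0.03 and 0.03. Some calls rested on single libraries. Cd9 (0.61) after CCl4 alone was lost without either CCl4 liver and without control replicate 1 or 4, and Atp6v0d2 was lost there without either CCl4 liver or control replicate 2, and in the siHAS2-LNP arm without any of the 4 fibrotic livers or siHAS2-LNP replicate 1 or 2. Ctsd in the siLuc-LNP arm was lost without siLuc-LNP replicate 1 or 2 or CCl4 + siLuc-LNP replicate 1 or 2.

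Whether nanoparticles or 4MU alone altered these genes was asked in uninjured livers. Against control, siLuc-LNP raised Trem2 by 2.93 on the log2 scale (SE 0.41, 95% interval 2.09 to 3.77, adjusted p = 0.00053, edgeR), the only 1 of 9 members called where 0.213% of all genes were. The 3 siLuc-LNP livers were all above the 4 control livers, and the call held without any 1 of these 7 libraries, but not when only these 7 libraries were fitted (adjusted p = 0.0659). Counts behind Trem2 were few, from 4 to 13 in control libraries. The siHAS2-LNP livers, whose values are given above, were not compared with control by a test.

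Some other genes of the monocyte and macrophage lists differed beside Trem2 in the same livers, while others on those lists did not. The fractalkine receptor Cx3cr1, carried by monocytes and their descendants, measured 0.694 to 2.82 CPM in control livers, 7.59 to 18.7 CPM after siLuc-LNP and 8.90 to 10.6 CPM after siHAS2-LNP, and was higher by 2.94 after siLuc-LNP (adjusted p = 0.00017, edgeR). The scavenger receptor Marco, a gene of resident Kupffer cells, measured 2.90 to 9.55 CPM in control livers against 0.0571 to 0.439 CPM after siLuc-LNP and 0.358 to 0.801 CPM after siHAS2-LNP. Its log2 fold change for siLuc-LNP against control was -4.46 (adjusted p = 0.0023), and that of C6, a complement component on the same list, was -2.62 (adjusted p = 3e-05).

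Marco remained low in nanoparticle-treated fibrotic livers, at no more than 0.540 CPM, against 9.66 to 33.5 CPM in fibrotic livers without nanoparticles. In siLuc-LNP against control, 0 of 8 general macrophage genes, 2 of 9 Kupffer cell genes (both lower) and 1 of 8 monocyte genes (higher) were called (0.213% of all genes). The Kupffer cell median was -0.12, beside 0.01 over all genes. Clec4f (92.5 to 186 against 136 to 207 CPM) and Timd4 (10.3 to 14.6 against 11.3 to 16.3 CPM) overlapped control. Of the monocyte genes, Ccr2 was higher (6.57 to 8.31 against 2.03 to 4.49 CPM) and Ly6c2 was not (0.569 to 1.19 against 0.712 to 2.22 CPM). Trem2 per Cd68, a ratio of counts to a lysosomal glycoprotein of all macrophages, was 0.0272 to 0.0663 in control, 0.196 to 0.471 in siLuc-LNP and 0.0922 to 0.201 in siHAS2-LNP livers. The part of monocyte and Kupffer cell numbers in the Trem2 difference was not tested.

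No member was called for 4MU against control (0.00709% of genes called). An unadjusted p under 0.05 (edgeR) was held by 2 members, beside 966 of all 14114 genes. Fabp5 differed by -1.63 (SE 0.50, adjusted p = 0.369, edgeR) and Atp6v0d2 by -1.07 (SE 0.35, adjusted p = 0.404). Atp6v0d2 measured 16.7, 12.6 and 9.21 CPM after 4MU, below all 4 control livers. For siHAS2-LNP against siLuc-LNP no member was called either (0.0425% of genes). At an unadjusted p under 0.05 (edgeR) were 2 members, beside 1262 of all 14114 genes: Trem2 at -0.80 (95% interval -1.56 to -0.04, adjusted p = 0.521) and Fabp5 at -1.29 (adjusted p = 0.446).

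The next question was whether the members differed in fibrotic livers with treatment, which was begun before the first CCl4 injection. With 4MU, no member was called against CCl4 alone (edgeR), although 18.3% of all genes were. An unadjusted p under 0.05 was held by 4 members, beside 4777 of all 14114 genes. Gpnmb differed by 1.24 (95% interval 0.05 to 2.42, adjusted p = 0.131), Ctsd by 0.51 (0.05 to 0.97, adjusted p = 0.111), Atp6v0d2 by 0.90 (0.07 to 1.72, adjusted p = 0.117) and Spp1 by -0.79 (-1.52 to -0.06, adjusted p = 0.118). The members did not share a direction, and the median of the 9 was 0.16, beside 0.04 over all genes.

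In the single livers, the ranges of some members did not overlap between the 2 CCl4 and 4 CCl4 + 4MU livers. With so few livers such gaps can arise by chance. Here and in the comparisons below, the share of all genes with such gaps was not counted, so they are a description. Gpnmb, Trem2, Ctsd and Atp6v0d2 were higher in every 4MU-treated liver, while Spp1 and Cd63 were lower in every one. Ctsd measured 350, 345, 399 and 431 CPM with CCl4 + 4MU, and Atp6v0d2 25.3, 20.5, 20.3 and 13.5 CPM. Without CCl4 + 4MU replicate 4 Spp1 differed by -0.80 (adjusted p = 0.175), Ctsd by 0.44 (0.218), Gpnmb by 1.36 (0.136) and Atp6v0d2 by 1.04 (0.0972), by edgeR.

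The change of Atp6v0d2 on CCl4 differed between mice with and without 4MU. The interaction was 1.97 (SE 0.53, 95% interval 0.87 to 3.07, adjusted p = 0.0355, edgeR), 1 of 9 members called where 5.67% of all genes were. Without 4MU the gene measured 20.7 to 43.2 CPM in control and 10.1 and 11.3 CPM after CCl4, and with 4MU it measured 9.21 to 16.7 CPM in uninjured and 13.5 to 25.3 CPM in fibrotic livers. The call was lost without control replicate 1 or 2, 4MU replicate 2 or 3, either CCl4 liver, or CCl4 + 4MU replicate 1 or 2, with values between 1.65 and 2.03 and adjusted p up to 0.159. Without CCl4 + 4MU replicate 4 the interaction was 2.12 (adjusted p = 0.0462, edgeR).

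For CCl4 + siLuc-LNP against CCl4 alone, 0 members were called (edgeR, 0.248% of genes called), with log2 fold changes between 0.01 and 0.93. An unadjusted p under 0.05 was held by 0 members, beside 2001 of all 14114 genes. Gpnmb and Cd9 had ranges that did not overlap, both higher in the nanoparticle livers. At an unadjusted p under 0.05 (edgeR), the interaction of siLuc-LNP with CCl4 held 2 members, beside 1411 of all 14114 genes. For Trem2 this interaction was -2.83 (SE 0.52, 95% interval -3.91 to -1.75), which did not pass (adjusted p = 0.0606, edgeR, 0.00709% of genes called). It passed when replicate 2 of siLuc-LNP or replicate 1 or 4 of CCl4 + siLuc-LNP was left out, with values between -3.13 and -2.77. Of all 21 alternative fits, 15 did not pass either, with adjusted p up to 0.381.

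With siHAS2-LNP, Cd63 was lower by 1.11 on the log2 scale than with CCl4 alone (SE 0.37, 95% interval of the difference -1.88 to -0.35, adjusted p = 0.0454, edgeR), the only member called where 14.4% of all genes were. Cd63 measured 18.3, 11.9, 10.3 and 10.7 CPM in CCl4 + siHAS2-LNP livers, all below both CCl4 livers. The call was lost without either CCl4 liver (adjusted p = 0.0925 and 0.267) and without CCl4 + siHAS2-LNP replicate 2, 3 or 4, with log2 fold changes from -1.19 to -1.02 in those fits. Gpnmb (0.07), Spp1 (-0.49) and Trem2 (-0.39) had 95% intervals that included 0, from -1.06 to 1.19 for Gpnmb.

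Against the matched nanoparticle control CCl4 + siLuc-LNP, 0 members were called for CCl4 + siHAS2-LNP (edgeR, 1.09% of genes called). An unadjusted p under 0.05 was held by 4 members, beside 2349 of all 14114 genes. All 9 log2 fold changes were below 0, with a median of -0.65 beside 0.00 over all genes. This was not particular to the members. In the same comparison the median was -0.69 for general macrophage, -0.70 for Kupffer cell and -1.06 for stellate cell and myofibroblast markers. It was -0.11 for lysosome and acidification genes and 0.02 for hepatocyte markers. Cd63 differed by -1.12 (95% interval -1.77 to -0.47, adjusted p = 0.0776), Spp1 by -1.03 (-1.65 to -0.41, adjusted p = 0.0862), Fabp5 by -0.97 (adjusted p = 0.270) and Lgals3 by -0.65 (adjusted p = 0.271). Spp1 was lower in every siHAS2-LNP liver than in any siLuc-LNP liver. With DESeq2 both Cd63 and Spp1 passed (adjusted p = 0.0239 and 0.0235), in a fit that called 412 of 14114 genes, against 154 by edgeR.

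Without CCl4 + siLuc-LNP replicate 1, the liver with 677 CPM, Spp1 differed by -0.55 (adjusted p = 0.375). The interaction of siHAS2-LNP with CCl4, measured against siLuc-LNP, called 0 members (edgeR, 0.0354% of genes). Lgals3 was the only member at an unadjusted p under 0.05, beside 1612 of all 14114 genes, with a value of -1.20 (adjusted p = 0.321).

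**Figure D3:**
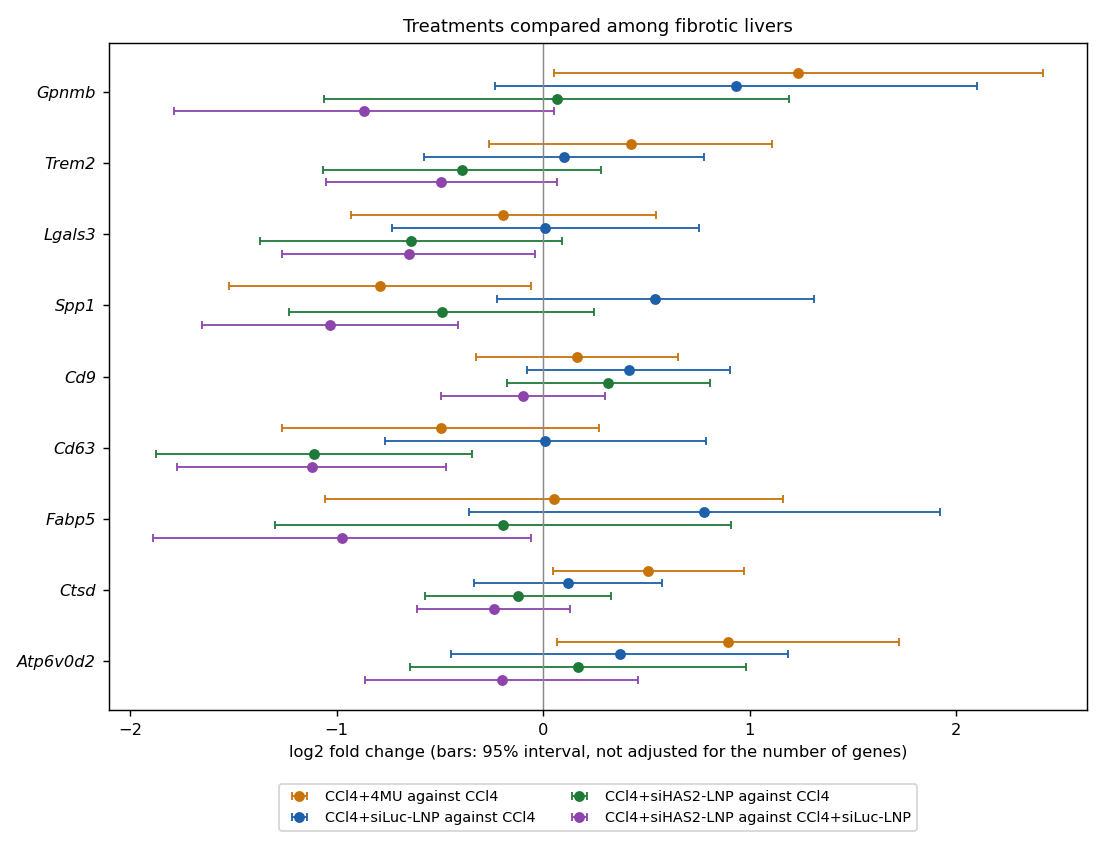
Log2 fold changes between fibrotic groups (points) with 95% intervals not adjusted for the number of genes, colours for the 4 comparisons. Most intervals include 0, Cd63 lies left of 0 in both siHAS2-LNP comparisons, and Gpnmb and Spp1 lie on opposite sides of 0 with 4MU.

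Both agents aimed at hyaluronan were also set against each other. For CCl4 + 4MU against CCl4 + siHAS2-LNP, 0 members were called (edgeR, 1.22% of genes). At an unadjusted p under 0.05 were 4 members, beside 2629 of all 14114 genes: Ctsd at 0.63 (95% interval 0.26 to 1.00, adjusted p = 0.0745), Trem2 at 0.82 (0.26 to 1.38, adjusted p = 0.113), Gpnmb at 1.17 (0.24 to 2.1, adjusted p = 0.163) and Atp6v0d2 at 0.73 (0.07 to 1.39, adjusted p = 0.221). Gpnmb, Trem2 and Ctsd were higher in every 4MU-treated liver than in any siHAS2-LNP liver. Without CCl4 + 4MU replicate 4 the differences were 0.57 for Ctsd, 0.85 for Trem2, 1.30 for Gpnmb and 0.88 for Atp6v0d2, with adjusted p from 0.257 to 0.311 (edgeR). With all libraries, limma-voom with sample quality weights called Gpnmb, Trem2 and Ctsd (adjusted p from 0.0182 to 0.0316). That fit called 1024 of 14114 genes, against 172 by edgeR.

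The macrophage setting differed between these livers too. Of 9 Kupffer cell markers, 6 were called lower for CCl4 + siHAS2-LNP against CCl4 (14.4% of all genes called) and 4 higher for CCl4 + 4MU against CCl4 + siHAS2-LNP (1.22%), but 0 were called for CCl4 + siHAS2-LNP against the matched particle control CCl4 + siLuc-LNP (edgeR). Clec4f, a lectin restricted to Kupffer cells, measured 20.4 to 36.5 CPM in CCl4 + siHAS2-LNP and 38.0 to 67.9 CPM in CCl4 + siLuc-LNP livers, against 81.4 to 114 CPM in CCl4 livers and 70.2 to 157 CPM in CCl4 + 4MU livers. Cd68 measured 19.01 and 48.7 CPM in CCl4 livers and 17.4, 13.6, 10.2 and 5.87 CPM with CCl4 + siHAS2-LNP, a log2 fold change of -1.50 (adjusted p = 0.009, edgeR).

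The 8 general macrophage markers summed to 263 to 314 CPM with CCl4, 367 to 606 CPM with CCl4 + 4MU, 223 to 454 CPM with CCl4 + siLuc-LNP and 156 to 244 CPM with CCl4 + siHAS2-LNP. Gpnmb per Cd68, as a ratio of counts, was 1.03 and 3.04 in the CCl4 livers, 3.40 to 6.74 with CCl4 + 4MU, 3.07 to 5.83 with CCl4 + siLuc-LNP and 2.96 to 6.58 with CCl4 + siHAS2-LNP, so the 3 treated groups overlapped on that scale. The part of macrophage number in the differences among members was not tested.

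Spp1 and Gpnmb, the most abundant secreted and the most induced member, did not keep 1 ratio. Spp1 per Gpnmb was 4.35 and 4.87 in CCl4 livers, 0.901 to 1.60 with CCl4 + 4MU, 2.07 to 4.33 with CCl4 + siLuc-LNP and 2.00 to 7.20 with CCl4 + siHAS2-LNP. The 4 livers given 4MU held the 4 lowest ratios of the 14. This ratio was chosen after the values were seen and was not tested.

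**Figure D4:**
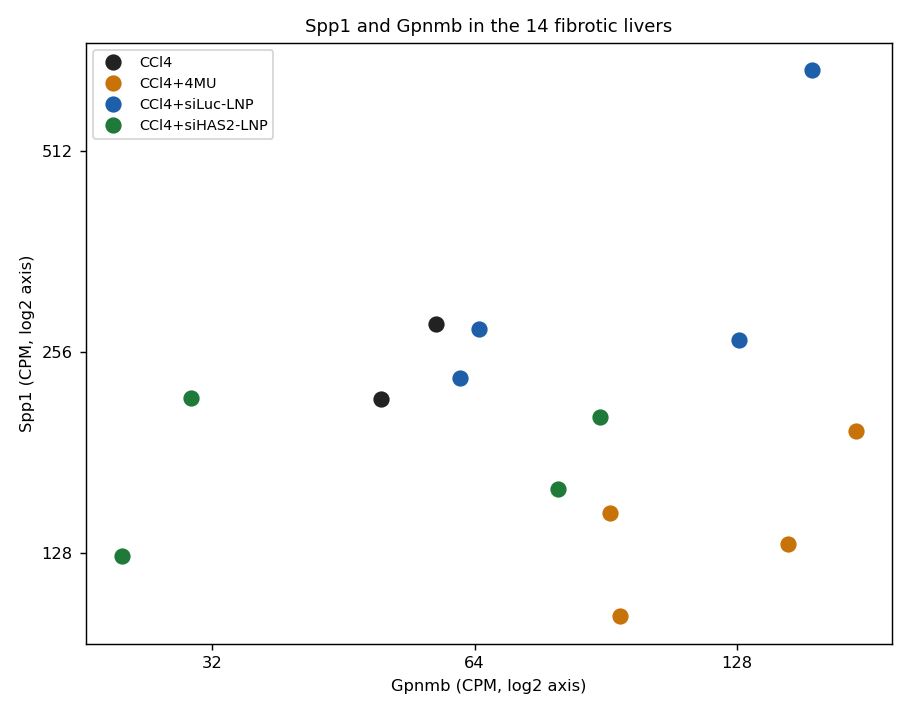
Spp1 against Gpnmb in the 14 fibrotic livers, both in CPM on log2 axes, coloured by group. The 4 CCl4 + 4MU livers lie at 91.7 to 175 CPM of Gpnmb and 103 to 195 CPM of Spp1. On each axis alone they overlap livers of other groups, CCl4 + siLuc-LNP for Gpnmb and CCl4 + siHAS2-LNP for Spp1. In addition, 1 CCl4 + siLuc-LNP liver stands at 677 CPM of Spp1.

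Deviations of single livers from their group mean showed which members moved together. Over the 27 libraries, with group means subtracted, Gpnmb correlated with Trem2 and with Lgals3 (Pearson r = 0.63 for both), and Spp1 with Cd9 (r = 0.78) and Cd63 (r = 0.60), while Lgals3 also followed Cd63 (r = 0.44) and Spp1 (r = 0.43), whereas Gpnmb and Spp1 had r = 0.02 and Trem2 and Cd9 r = -0.40. These are descriptions over libraries that share depth and composition, and libraries of a group are not independent once its mean is removed. Without that subtraction Gpnmb and Trem2 had r = 0.95, with fibrotic and uninjured livers as separate clusters.

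**Figure D5:**
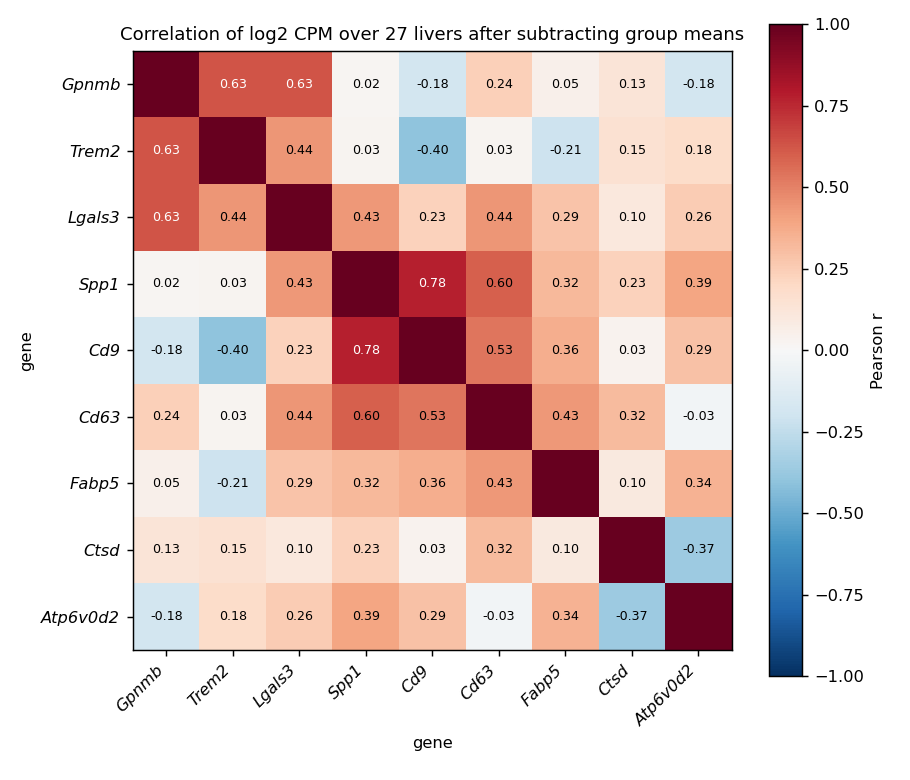
Pearson correlation between members of log2 CPM over 27 livers after group means were subtracted (colour and printed value, red for positive and blue for negative). Values among Gpnmb, Trem2 and Lgals3 run from 0.44 to 0.63 and those among Spp1, Cd9 and Cd63 from 0.53 to 0.78, and Lgals3 has 0.44 with Cd63 and 0.43 with Spp1.

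Outside the list, the genes whose log2 CPM followed the mean standardised level of the 9 most closely over 27 libraries were Itgax (r = 0.96), Fhl2, Ifi27l2b, Akr1b10, Akr1b1, C1qtnf6, Vim, Spink1, Spire2 and Pcolce (r = 0.92 for the last). Itgax, the integrin CD11c of myeloid cells, measured 0.253 to 1.80 CPM in uninjured livers and 2.73 to 20.1 CPM in fibrotic livers. With group means subtracted the closest were Leprot (r = 0.81), Fam180a, Phf5a, Bex3, Ahnak, Speg, Tnfaip8, Lsm3, Anxa1 and Tmsb4x (r = 0.74), so no gene stood in both lists of 10.

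Of 19 other genes of Trem2 signalling and lipid-associated macrophages, 11 were higher and 1 lower after CCl4 alone (34.1% of all genes called), with a median of 0.65 beside -0.02 over all genes. The largest were Mmp12, a macrophage elastase (7.15, adjusted p = 2.3e-06, edgeR), and the actin-capping protein Capg (2.78, adjusted p = 1.8e-06), while the lipid carrier Apoe was lower (-1.16, adjusted p = 0.0087). The adaptor Tyrobp did not pass (0.35, adjusted p = 0.37) and the kinase Syk did (0.64, adjusted p = 0.028). The list had 11 higher and 0 lower in the 4MU arm, 10 and 1 in the siLuc-LNP arm, and 6 and 0 in the siHAS2-LNP arm, beside 23.7%, 24.2% and 12.8% of all genes called.

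Among fibrotic livers the same list had 3 higher and 2 lower for CCl4 + 4MU against CCl4, where 18.3% of all genes were called. The higher ones included Itgax (1.37, adjusted p = 0.033, edgeR) and the beta-glucan receptor Clec7a (1.33, adjusted p = 0.0054), and the lower ones were the fatty acid chaperone Fabp4 (-1.32, adjusted p = 0.013) and the lipid droplet coat protein Plin2 (-1.03, adjusted p = 0.029). For CCl4 + siHAS2-LNP against CCl4 it had 0 higher and 2 lower, where 14.4% of all genes were called, Fabp4 among them (-1.52, adjusted p = 0.0078), and 0 of either for CCl4 + siHAS2-LNP against CCl4 + siLuc-LNP.

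The 30 lysosome and acidification genes, partners of Ctsd and Atp6v0d2, had 7 higher and 2 lower after CCl4 alone, with a median of 0.05, so no larger a share was called than the 34.1% of all genes. Ctsk (2.99, adjusted p = 0.0022, edgeR) and Ctss (1.09, adjusted p = 0.0094), cysteine proteases of osteoclasts and myeloid cells, were higher, and Ctsa (-0.73, adjusted p = 0.0029) and Lamp2 (-0.58, adjusted p = 0.023) lower. Of 7 tested osteoclast-type fusion genes that accompany Atp6v0d2 in osteoclasts, 2 were higher and 0 lower (34.1% of all genes called), Ctsk and the receptor Tnfrsf11a (1.46, adjusted p = 0.008).

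Of 7 receptors of Spp1, 3 were higher after CCl4, near the 34.1% of all genes called, led by Cd44 (1.63, adjusted p = 7.9e-05, edgeR) and the integrin Itgb1 (0.94, adjusted p = 0.00093). With 4MU 2 of the 7 were lower than with CCl4 alone (18.3% of all genes called), Itgav among them (-0.96, adjusted p = 0.009), and with siHAS2-LNP 1 was lower (14.4%). Of 12 tetraspanins other than Cd9 and Cd63, 3 were higher and 1 lower after CCl4 (34.1% of all genes called). For CCl4 + 4MU against CCl4 alone 1 was higher and 0 lower (18.3%).

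Markers of other cells were called in the comparison of CCl4 with control, in which 34.1% of all genes were called. General macrophage markers had 3 of 8 higher and 2 lower, Kupffer cell markers 1 of 9 higher and 3 lower, and monocyte markers 6 of 8 higher and 0 lower, among them Ccr2 (2.19, adjusted p = 0.00017, edgeR). Neutrophil markers had 0 of 5 called, cholangiocyte markers 1 of 6 higher, stellate cell and myofibroblast markers 6 of 7 higher (Col1a1 by 5.49), sinusoidal endothelium 2 of 6 higher and 1 lower, hepatocyte markers 4 of 7 lower and proliferating cell markers 4 of 4 higher. Their part in the levels of the 9 members was not tested.

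In the annotation 8 members overlap other annotated genes, and the counting setting for strand is not given in the sources used here. Of the overlapping genes in the count table, Gm28809, opposite to Cd9, held the most, 84 counts over all 27 libraries against 22083 for Cd9. Copies of Cd9, Cd63 and Fabp5 elsewhere in the genome held at most 6 counts each, and reads shared between a gene and a copy may have been left uncounted.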

How the data were processed

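Total liver RNA of 27 mice was sequenced in paired-end mode from directional poly(A) libraries (NextSeq500). Per the labels and the study's methods, the authors trimmed reads with Trimmomatic 0.39, aligned them with HISAT2 to GRCm39 and counted them per gene with featureCounts (Ensembl release 105). The deposited values are raw counts per gene with no normalisation, and DESeq2 is named among the authors' tools. All 27 columns were matched to their samples by name and none was left out.

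Here, genes averaging 10 counts or more over the libraries were kept, library totals were scaled by TMM, and 1 model of all 8 groups was fitted with edgeR 4.0.16 (quasi-likelihood test, R 4.3.3), with p-values adjusted by Benjamini-Hochberg over all genes tested and called under 0.05. CPM are TMM-scaled, and correlations used log2 CPM with a prior count of 2. TPM used the joined length of all exons of a gene, over all its transcripts, in the GENCODE annotation of GRCm39. Members and lists were chosen with earlier results of these data known. Named were the 9 members, in each list the 2 largest and 2 smallest log2 fold changes of a comparison, a set of defining markers and the 10 genes most like the members; Marco, C6, Cx3cr1 and Cd68 values by liver were chosen after they were seen. The labels give replicate numbers, yet same-numbered libraries of different groups did not deviate together (83 pairs, median r = -0.02, range -0.32 to 0.29, 17 pairs over 0.1), so the numbers were not used as pairs. No 2 libraries of a group agreed within sampling noise (lowest chi-square per degree of freedom 15.28 over 34 pairs). Alternatives were DESeq2 1.42.0, limma-voom (limma 3.58.1) with quality weights, other size factors and filters, a replicate block, fits of the compared groups alone, each library left out, and unscaled totals, the last chosen after seeing the data.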

Additional observations from a re-analysis of the deposited data

Results flagged for a closer look

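Spp1 in CCl4 + siLuc-LNP replicate 1 stood above the other 3 livers of its group (677 against 233, 277 and 266 CPM), with a gap that took 0.84 of the group's range in log2 CPM (Dixon's limit for 4 libraries is 0.829).

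Fabp5 in CCl4 + siHAS2-LNP replicate 4, the library with the fewest counts, stood above the others of its group (44.0 against 27.9, 26.7 and 27.8 CPM, a gap of 0.912 of the range). These were 2 of 36 groups of 4 examined, and chance gives about 5%.

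The change of Atp6v0d2 on CCl4 differed with 4MU by 1.97 on the log2 scale, by the interaction test of edgeR (adjusted p = 0.0355). In that test 5.67% of all genes were called, and 9 of 21 alternative fits lost the call.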

How the results depend on the processing

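The Benjamini-Hochberg adjusted threshold of 0.05 was used throughout, and 824 of 908 alternative values kept their direction and side of it, 39 lost the call, 39 gained it and 6 changed sign, counted over the members in the 4 CCl4 arms and the members with an unadjusted p under 0.05 elsewhere. The 76 other member values, none of them called, changed sign in 76 alternative fits and gained a call in 1. With no filter on low counts the members called were 3 for CCl4 + 4MU against CCl4, 5 for CCl4 + siHAS2-LNP against CCl4 + siLuc-LNP, 4 for CCl4 + 4MU against CCl4 + siHAS2-LNP, 2 for 4MU against control, 1 for siHAS2-LNP against siLuc-LNP, and 2, 1 and 1 for the interactions of 4MU, siLuc-LNP and siHAS2-LNP with CCl4. With DESeq2 the members called were 2 for CCl4 + siHAS2-LNP against CCl4 + siLuc-LNP (412), 1 for CCl4 + 4MU against CCl4 + siHAS2-LNP (505) and 1 for the siLuc-LNP interaction (39). With limma-voom they were 3 for CCl4 + 4MU against CCl4 + siHAS2-LNP (1024) and 1 for siHAS2-LNP against siLuc-LNP (171). In that fit Fabp5 in the siLuc-LNP arm changed sign (-0.0892), while Cd9 for CCl4 against control (adjusted p = 0.104) and Atp6v0d2 in the siHAS2-LNP arm (adjusted p = 0.0528) lost their calls. With only the compared groups fitted by edgeR, the members called were 2 for CCl4 + 4MU against CCl4 (2118) and 0 for siLuc-LNP against control (12). There Cd9 for CCl4 against control (adjusted p = 0.079) and Ctsd in the siLuc-LNP arm (adjusted p = 0.128) lost their calls. The cause of these shifts was not tested.

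Unscaled library totals moved the median log2 fold change of all genes to 0.39 for CCl4 against control and -0.30 for CCl4 + 4MU against CCl4, and the split of genes called in the first from 2537 higher and 2269 lower to 4933 and 916, and in the second to 488 and 3218. On that scale Spp1 (-1.11) was the 1 member called for CCl4 + 4MU against CCl4, Atp6v0d2 (-0.92) lost and Ctsd (0.65) gained its call for CCl4 against control, and Atp6v0d2 in the siHAS2-LNP arm lost its call (adjusted p = 0.142). There 0 members were called for the 4MU interaction (2178 of all genes called) and 1 for the siLuc-LNP interaction (5 of all genes called).

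Leaving out 1 library gave 5 to 7 members called for CCl4 against control, 7 to 8, 6 to 7 and 6 to 7 in the 4MU, siLuc-LNP and siHAS2-LNP arms, 0 to 1 for CCl4 + siHAS2-LNP against CCl4, against CCl4 + siLuc-LNP and against CCl4 + 4MU, and 0 to 1 for the 4MU and siLuc-LNP interactions. Fold changes that changed sign ranged from -0.70 to 0.10 for Fabp5 and -0.0185 to 0.53 for Ctsd (CCl4 against control), from -0.0783 to 0.50 for Fabp5 (siLuc-LNP arm) and from -0.0285 to 0.21 for Ctsd (siHAS2-LNP arm). With the replicate number as a block the count of members called was unchanged except in the siHAS2-LNP arm, where it was 6 and Atp6v0d2 (-0.91) had an adjusted p of 0.0734.

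The genes called among all tested differed by more than 1.5 times between the reported fit and 1 or more of 8 alternative fits in 12 of the 15 comparisons. They were 3418 in the siLuc-LNP arm (1504 to 3727 over the alternatives), 1812 in the siHAS2-LNP arm (1538 to 3455), 35 for CCl4 + siLuc-LNP against CCl4 (1 to 427), 2038 for CCl4 + siHAS2-LNP against CCl4 (1322 to 2515), 154 for CCl4 + siHAS2-LNP against CCl4 + siLuc-LNP (0 to 656), 172 for CCl4 + 4MU against CCl4 + siHAS2-LNP (108 to 1024), 1 for 4MU against control (0 to 136), 30 for siLuc-LNP against control (12 to 143), 6 for siHAS2-LNP against siLuc-LNP (3 to 171), and 800 (561 to 2178), 1 (0 to 197) and 5 (0 to 304) for the interactions of 4MU, siLuc-LNP and siHAS2-LNP. Depth limits Has2, and Gpnmb and Trem2 in uninjured livers.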
